A study of Mus musculus with 8 samples.

Results

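Genes of the integrated stress response that act through ATF4 and CHOP were followed in CD4+ T cells sorted from the knee joints of mice with antigen-induced arthritis. In this model an immune response to an injected antigen inflames the joint. The members were 10 genes taken by symbol from the 24421 symbols of the count table: Atf4, Ddit3 (which encodes CHOP), Atf5, Cebpg, Trib3, Asns, Chac1, Nupr1, Ddit4 and Ppp1r15a. RNA-seq libraries came from Slc7a5 knockout cells (4 libraries) and wild-type cells (4 libraries), all from male mice aged 16 weeks with the same arthritis. Slc7a5 encodes the light chain of LAT1, a plasma membrane transporter of large neutral amino acids. The sources used here do not give the strain, the deleted part of the gene, the cells in which it was deleted or how many cells made up a library. Nor do they tie a library to its own animal, so p-values reflect only how much these libraries vary, some of which may be technical.

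The integrated stress response starts at kinases that phosphorylate the translation initiation factor eIF2. One of them, GCN2, is activated when uncharged tRNA accumulates in amino acid shortage. General protein synthesis then slows, while the Atf4 and Ddit3 messages, which carry upstream open reading frames, continue to be translated. ATF4 protein binds C/EBP-ATF response elements together with other bZIP proteins and turns on genes of amino acid supply, of feedback and, with CHOP, of cell death. Since ATF4 is set largely by translation, RNA counts measure its message and its targets' messages and not the protein.

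The response element can be read in some of the members. RefSeq promoter windows of GRCm38.p6, from 250 bases before to 50 bases after a gene's start site, were available for 10 of 10 members (11 windows) and were searched on both strands for TGATGNAA. A match was present for 4 members, against 4.51% of all 27025 genes with such a window. The stretches around the 4 matches are shown because they include both members with no RNA here and the member with the greatest fold change. They are written on the gene's own strand, with the motif in capitals, which reads TTNCATCA where it lies on the opposite strand.
Chac1: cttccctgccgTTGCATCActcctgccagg
Trib3: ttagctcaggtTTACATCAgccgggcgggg
Asns: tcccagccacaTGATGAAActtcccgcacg
Nupr1: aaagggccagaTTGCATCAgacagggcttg
The Chac1 stretch lies at chr2:119351038-119351067 on the plus strand. The others are read from the minus strand, that of Trib3 at chr2:152344028-152344057, that of Asns at chr6:7693214-7693243 and that of Nupr1 at chr7:126625562-126625591. Relative to the start sites of these RefSeq windows, the Trib3 match lies just after the start and the other 3 before it. The gene spans of GENCODE M21, used for positions below, start elsewhere. By those spans the Asns and Nupr1 matches lie inside the gene and the Trib3 match before its start. No match in the windows of the remaining 6 members says only that these letters are absent from that stretch.

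The knockout libraries held 18837650 to 25853856 counts and the wild-type libraries 21873678 to 36436923. Knockout replicate 4 stood apart, with 5221 genes detected, against 7684 to 9358 in the other knockout libraries and 7957 to 10139 in wild type. Of the 8489 genes that passed a filter on low counts, 43.7% were at 0 in that library, 6.50% to 19.3% in the other knockout libraries, 15.3% in wild-type replicate 4 and 2.86% to 3.45% in the other wild-type libraries. Slc7a5 had no count in any of the 4 knockout libraries, against 385, 194, 410 and 0 counts in wild-type replicates 1 to 4. Of 15 T cell markers, 12 were among the symbols, and they summed to 7767 to 10100 CPM in knockout and 9740 to 13130 CPM in wild type. Estimates of knockout over wild type were lower for 10 and higher for 2. In edgeR 4 were lower and 1 higher at an unadjusted p under 0.05, against 1.97% and 1.87% of all tested genes, and 0 passed after adjustment. Cd4 itself was at 1.78 CPM in knockout replicate 4, against 344 to 427 CPM in the other knockout libraries and 373 to 570 CPM in wild type. Cd8b1, a CD8 chain, was at 123 CPM in knockout replicate 4, against 0 to 7.56 CPM in the other knockout libraries and 0 to 20.3 CPM in wild type. Cd8a, the other CD8 chain, was at 0 in every knockout library and at 0 to 7.15 CPM in wild type. The 7 listed markers of CD8 T and natural killer cells summed to 92.9, 153, 45.8 and 123 CPM in knockout replicates 1 to 4. In wild type they summed to 132 to 291 CPM. CPM values are counts on a common library size after TMM normalisation.

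Of the 10 members, 8 were detected and tested, and Trib3 and Chac1 had 0 counts in all 8 libraries. None passed the quasi-likelihood test of edgeR after Benjamini-Hochberg adjustment over all genes (0 of 8 members, against 0 of 8489 genes or 0% of those tested, with an adjusted p of 0.9999 for every member tested). DESeq2 also called 0 of the 8, while it called 3.63% of the 10659 genes it tested. One member, Ddit4, was at an unadjusted p under 0.05, and 3.84% of all tested genes were. Estimates were higher in knockout for Nupr1, Asns, Cebpg and Atf4 and lower for Ddit4, Ddit3, Atf5 and Ppp1r15a, while 45.0% of tested genes had higher and 55.0% lower estimates. The median log2 fold change, knockout over wild type, was −0.07 for the 8 tested members and −0.12 for all tested genes. The number of members detected was 8, 8, 8 and 4 in knockout replicates 1 to 4, against 8, 8, 8 and 6 in wild-type replicates 1 to 4. In such bulk libraries, fewer cells of a type and less RNA per cell cannot be told apart.

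**Figure D1:**
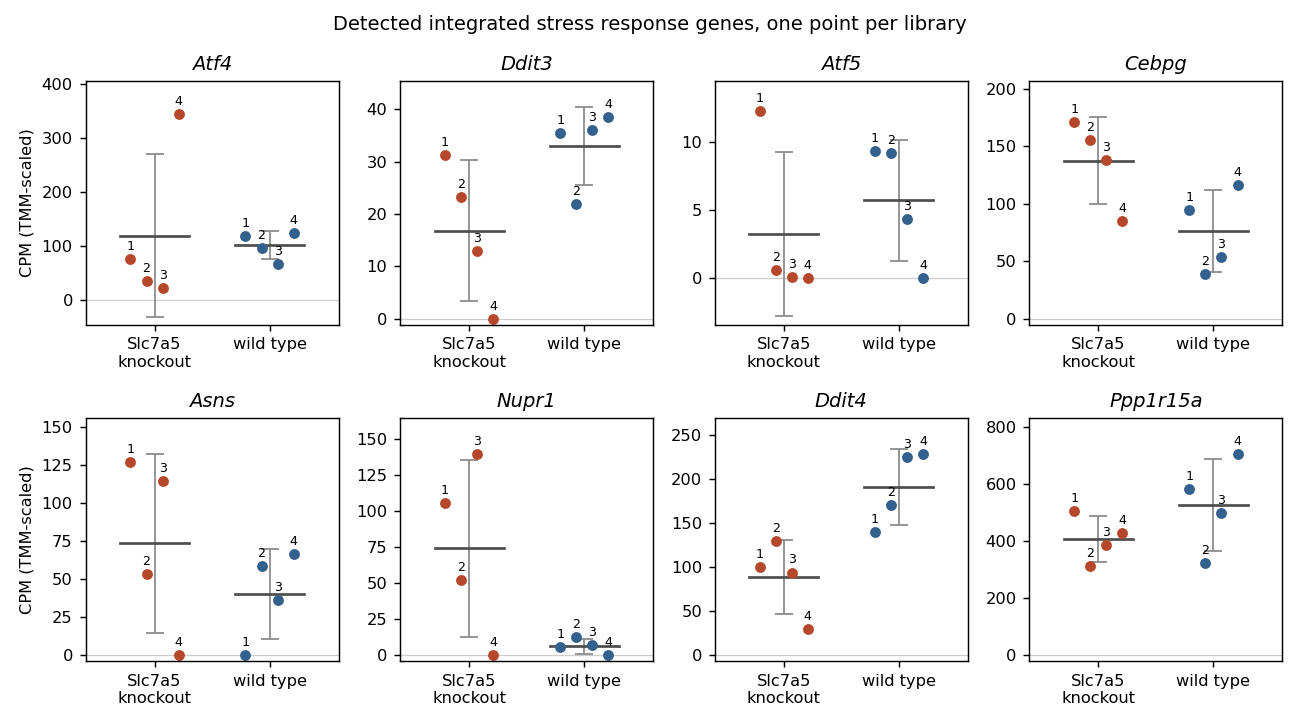
CPM after TMM scaling (vertical axis, linear, a separate scale per gene) of the 8 detected members in 4 Slc7a5 knockout and 4 wild-type libraries, each point a library labelled with its replicate number, with the mean as a line and the SD as a bar. All knockout points of Ddit4 lie below all wild-type points, Nupr1 is high in knockout replicates 1 to 3, and knockout replicate 4 is at 344 CPM for Atf4 and at 0 for Ddit3, Atf5, Asns and Nupr1.

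Among the transcription factors, Atf4 (chr15:80255184-80257541), the central activator, was at 75.4, 36.4, 22.3 and 344 CPM in knockout replicates 1 to 4, against 118, 97.5, 67.5 and 125 CPM in wild-type replicates 1 to 4. Knockout replicates 2 and 3 lay below every wild-type library and replicate 4 above every one. The mean was 119 ± 151 CPM in knockout and 102 ± 25.7 CPM in wild type (SD, n = 4 each). This gave a log2 fold change of 0.23 (SE 0.80), which turned to −1.21 (SE 0.54) without knockout replicate 4, with an edgeR adjusted p of 0.623. With an offset for transcript GC content in each library it was 1.47. The direction of Atf4 thus depended on that library, in which 43.7% of tested genes were at 0, and on the method. With all 8 libraries the fold change was also negative in limma voom with quality weights (−1.25) and with the replicate number as a block (−0.61). The median of all tested genes was −0.36 and −0.68 in these fits.

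Ddit3 (chr10:127290774-127296288) encodes CHOP, the factor downstream of ATF4 that is linked to cell death. It was at 31.3, 23.2, 12.9 and 0 CPM in knockout replicates 1 to 4 and at 35.4, 22.0, 36.0 and 38.5 CPM in wild-type replicates 1 to 4. Knockout replicates 3 and 4 lay below every wild-type library and the other two within their range (log2 fold change −0.97, SE 1.79; −2.997 in limma voom, where the median of all tested genes was −1.27). Knockout replicate 4, with the most Atf4, had no Ddit3 count, where 3 counts would be 0.157 CPM. In GENCODE M21 the symbol Ddit3 covers 2 overlapping loci, and Mars, on the opposite strand, overlaps it. The sources used here do not state whether counting used strand, so reads of the overlap may go to either gene. Mars was at 59.2, 57.2, 73.7 and 0 CPM in knockout and at 80.1, 64.3, 67.0 and 0 CPM in wild-type replicates 1 to 4, so wild-type replicate 4 had Ddit3 without Mars.

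Atf5 (chr7:44812256-44816658), a relative of ATF4 whose message is also under upstream open reading frame control, had the lowest CPM of the detected members. It was at 12.3, 0.556, 0.0398 and 0 CPM in knockout replicates 1 to 4, against 9.34, 9.21, 4.31 and 0 CPM in wild-type replicates 1 to 4. Knockout replicate 1 held 292 counts, more than its own group's others together (10, 1 and 0), and exceeded all wild-type libraries in CPM. Its log2 fold change of −0.82 (SE 2.46) became −4.81 without that library. Nup62, on the opposite strand, overlaps Atf5 and was at 31.0, 0.0556, 50.03 and 0 CPM in knockout and 115, 79.0, 158 and 67.0 CPM in wild type.

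Cebpg (chr7:35046422-35056573) encodes C/EBP gamma, a bZIP partner of ATF4 on the response element. It was at 172, 156, 138 and 85.1 CPM in knockout replicates 1 to 4 and at 95.0, 39.0, 54.1 and 117 CPM in wild-type replicates 1 to 4. Knockout replicates 1 to 3 lay above every wild-type library, and replicate 4 lay within the wild-type range. The mean was 138 ± 37.7 CPM in knockout and 76.2 ± 35.9 CPM in wild type (SD, n = 4 each; log2 fold change 0.86, SE 0.57, unadjusted p = 0.158 in edgeR). Without both replicates numbered 4, the libraries with the fewest genes in each genotype, it was 1.29 (SE 0.42, edgeR adjusted p = 0.441). That setting was chosen after seeing the data.

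Among the metabolic targets, Asns (chr6:7675169-7693254), the asparagine synthetase that responds to amino acid shortage in many cells, was at 127, 53.1, 115 and 0 CPM in knockout replicates 1 to 4. In wild-type replicates 1 to 4 it was at 0.0556, 58.4, 36.0 and 66.4 CPM. Each genotype had a library with almost no Asns, at 0 counts in knockout replicate 4 and 2 counts in wild-type replicate 1. Wild-type replicate 1 was the deepest library, with 10139 genes detected. The source of its low Asns value was not tested. Knockout replicates 1 and 3 lay above all wild-type libraries, while replicate 2 lay among them. Asns had a log2 fold change of 0.87 (SE 1.82), and of 3.18 in limma voom with library quality weights, without passing. Chac1, which degrades glutathione, had 0 counts throughout, which allows up to 0.0349 CPM over the pooled knockout libraries and 0.0253 CPM over the pooled wild-type libraries at 3 counts. Such limits cover counting error alone, not a scarce message lost in amplification.

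Nupr1 (chr7:126623249-126630861), a small stress-induced chromatin protein, had the greatest fold change of the members. It was at 106, 51.9, 139 and 0 CPM in knockout replicates 1 to 4, against 5.92, 12.5, 7.23 and 0 CPM in wild-type replicates 1 to 4. Knockout replicates 1 to 3 lay above every wild-type library, and each genotype had 0 counts in its replicate 4. The mean was 74.2 ± 61.2 CPM in knockout and 6.42 ± 5.15 CPM in wild type (SD, n = 4 each). The log2 fold change was 3.53 (SE 2.15, unadjusted p = 0.128 in edgeR), and 99.5% of tested genes had an equal or lower one. Without both replicates numbered 4 it was 3.52 with an SE of 0.70, at an unadjusted p of 0.00105 and an adjusted p of 0.435 in edgeR. Since both libraries left out had 0 counts of Nupr1, a fold change of like size was fixed in advance and adds no support. Nupr1 did not pass over all genes in either fit.

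The sum of markers of monocytes, macrophages and dendritic cells was also higher in part of the knockout libraries. All 20 markers were among the symbols and 12 were tested. They summed to 9650, 11760, 3184 and 11630 CPM in knockout replicates 1 to 4, and to 1902 to 3816 CPM in wild type. Of the tested markers 4 were higher and 0 lower at an unadjusted p under 0.05, against 1.87% and 1.97% of all tested genes. Estimates were higher for 8 and lower for 4, and 0 passed in edgeR. DESeq2 called H2-Ab1 and Csf1r, where it called 3.63% of all genes it tested. Cd74, the invariant chain of class II antigen presentation, was at 4636, 5926, 1434 and 7352 CPM in knockout replicates 1 to 4, against 881 to 1969 CPM in wild type. H2-Ab1, a class II chain, was at 2781, 2840, 262 and 2403 CPM in knockout and at 140 to 601 CPM in wild type. Both were thus higher in knockout replicates 1, 2 and 4 than in every wild-type library. Ccr2, another large part of the sum, was at 881, 1686, 1117 and 561 CPM in knockout and at 595 to 952 CPM in wild type. Adgre1, Fcgr1 and Mrc1 were at 0 in every library, and Lyz2 was at 0, 0, 25.5 and 0.366 CPM in knockout replicates 1 to 4 and 22.0 to 25.7 CPM in wild type. Cd14 was at 0, 0, 22.2 and 0.209 CPM in knockout and at 9.005 to 40.1 CPM in wild type. Nupr1 was highest in knockout replicate 3, which had the lowest marker sum of its genotype but the highest Lyz2 and Cd14. It was at 0 in replicate 4, where the sum was 11630 CPM and 43.7% of tested genes were at 0. The part of such cells in the Nupr1 values was not tested.

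Among the feedback genes, Ddit4 (chr10:59949669-59951834) encodes REDD1, which restrains mTORC1 through the TSC complex. It was at 101, 130, 94.2 and 29.9 CPM in knockout replicates 1 to 4 and at 141, 171, 226 and 229 CPM in wild-type replicates 1 to 4. Each of the 4 knockout libraries lay below all 4 wild-type libraries, an order that 4.62% of tested genes also had. Ddit4 was the only member with it, and no member had every knockout library above every wild-type library, as 1.52% of tested genes did. The mean was 88.8 ± 42.3 CPM in knockout and 191 ± 43.2 CPM in wild type (SD, n = 4 each). The log2 fold change was −1.11 (SE 0.50, unadjusted p = 0.0478, adjusted p = 0.9999 in edgeR) and stayed negative in each of the 21 alternatives, from −1.38 to −0.55. The smallest size, −0.55, came with an offset for transcript GC content, in which Ddit4 stood at the percentile 93.2 of abundant genes.

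Ppp1r15a (chr7:45522916-45526268) encodes GADD34, which brings a phosphatase to eIF2 and so ends the response. It was at 506, 313, 387 and 427 CPM in knockout replicates 1 to 4 and at 582, 322, 497 and 705 CPM in wild-type replicates 1 to 4. The groups overlapped, with knockout replicate 2 below all wild-type libraries and the other 3 within the wild-type range. The log2 fold change was −0.37 (SE 0.28), and it turned to 0.36 (SE 0.43) with the GC offset, which moved the median of all tested genes from −0.12 to 0.13. Ppp1r15a also belongs to the genes that tissue digestion raises. The list of 23 immediate early and heat shock genes kept for that summed to 16270, 11860, 11270 and 12340 CPM in knockout, against 18610, 15860, 16010 and 20840 CPM in wild type. Of its 22 tested genes 0 passed in edgeR, and 5 had higher and 17 lower estimates (median −0.24). At an unadjusted p under 0.05, 0 were higher and 3 lower, against 1.87% and 1.97% of all tested genes. The 3 were Nr4a1, Junb and Ier2. Nr4a1 was at 2726, 1159, 1177 and 1902 CPM in knockout replicates 1 to 4 and at 3190 to 5351 CPM in wild type. Ppp1r15a and the sum of that list were both highest in replicate 1 within knockout and in replicate 4 within wild type, and the part of digestion was not tested. Trib3, a pseudokinase that restrains ATF4 and CHOP, had 0 counts in every library, with the same limits as Chac1.

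Per kilobase of annotated exon, Ppp1r15a was the most abundant member in both genotypes, at 139 ± 27.4 CPM per kilobase in knockout and 179 ± 54.7 in wild type (SD, n = 4 each). In knockout it was followed by Atf4 (50.7 ± 64.2), Ddit4 (50.6 ± 24.1), Nupr1 (29.5 ± 24.3), Asns (26.9 ± 21.5), Cebpg (24.5 ± 6.70), Ddit3 (9.83 ± 7.89) and Atf5 (1.62 ± 3.04). In wild type it was followed by Ddit4 (109 ± 24.6), Atf4 (43.2 ± 10.9), Ddit3 (19.2 ± 4.35), Asns (14.7 ± 10.9), Cebpg (13.6 ± 6.38), Atf5 (2.87 ± 2.24) and Nupr1 (2.55 ± 2.05). In knockout the SD ranges of neighbours in this order overlapped, except for Cebpg and Ddit3. In wild type those of Ddit4 and Atf4, of Atf4 and Ddit3 and of Cebpg and Atf5 did not overlap, and those of the other neighbours did. Exon lengths came from GENCODE M21 and stand in for the authors' annotation.

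**Figure D2:**
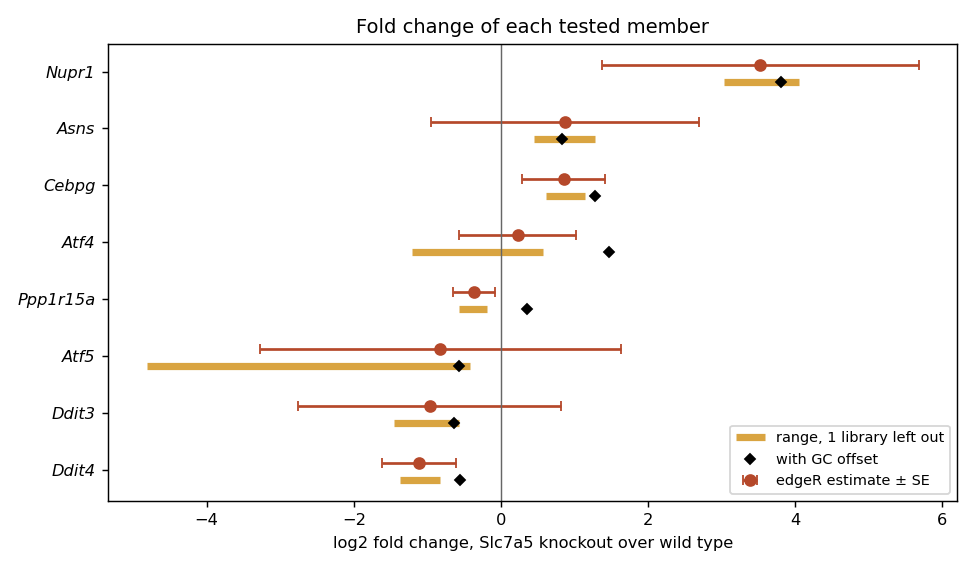
Log2 fold change of each tested member, Slc7a5 knockout over wild type (horizontal axis), with the edgeR estimate and its SE in red, the range over fits that each leave out 1 of the 8 libraries as a bar, and the estimate with an offset for GC content as a diamond. Nupr1 is at 3.53 and Ddit4 at −1.11, the range of Atf4 runs from −1.21 to 0.58 across 0, and that of Atf5 reaches −4.81.

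**Figure D3:**
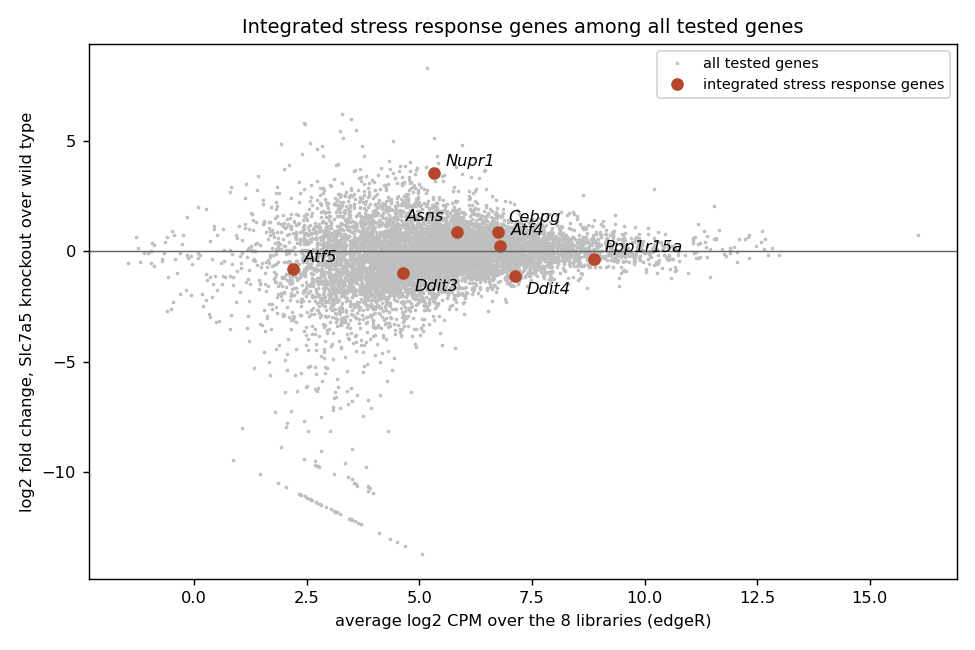
Log2 fold change, Slc7a5 knockout over wild type (vertical axis), against edgeR's average log2 CPM (horizontal axis) for the 8489 tested genes in grey, with the 8 tested members in red. Nupr1 lies near the upper edge at its level and the other members lie within the grey cloud.

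The 3 genes with the pattern most like that of Atf4 were Kif22, Supt5 and Sp4, by the mean absolute difference of centred log2 CPM over the 8 libraries (0.299, 0.346 and 0.405 among 2815 genes seen in all libraries at a mean of at least 50 CPM, whose median was 1.04). Each was highest in knockout replicate 4, which follows from picking them for likeness to Atf4. Kif22 was at 309 CPM there, against 30.6 to 131 CPM in the other knockout libraries and 109 to 176 CPM in wild type.

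Upstream of Atf4, none of the 22 tested genes of eIF2 and its kinases and phosphatases passed in edgeR, with 0 higher and 1 lower at an unadjusted p under 0.05, against 1.87% and 1.97% of all tested genes. Their median log2 fold change was −0.39. The 4 eIF2 kinases, named here after their values were seen, were uneven across libraries. Eif2ak4, which encodes GCN2, was removed by the filter and was at 0.0842, 0, 0 and 0.0522 CPM in knockout replicates 1 to 4 and at 0, 6.50, 4.96 and 0 CPM in wild-type replicates 1 to 4. Eif2ak3, which encodes the endoplasmic reticulum kinase PERK, was at 0, 0, 5.74 and 0.0522 CPM in knockout and at 34.7, 2.38, 4.65 and 0 CPM in wild type. Eif2ak2, the double-stranded RNA kinase PKR, averaged 28.7 ± 24.3 CPM in knockout and 40.1 ± 26.7 CPM in wild type (SD, n = 4 each). Eif2ak1, the haem-regulated kinase, averaged 14.9 ± 21.1 CPM in knockout and 35.2 ± 31.8 CPM in wild type (SD, n = 4 each). Libraries at 0 occurred in both genotypes for Eif2ak1, Eif2ak3 and Eif2ak4.

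GADD34 recruits catalytic subunits of protein phosphatase 1, and 3 of their genes were measured. Ppp1ca was at 898, 541, 797 and 772 CPM in knockout replicates 1 to 4 and at 1120, 1056, 976 and 955 CPM in wild-type replicates 1 to 4 (log2 fold change −0.45, SE 0.20). Ppp1cb was at 270, 201, 231 and 223 CPM in knockout and 114, 162, 177 and 96.3 CPM in wild type (0.75, SE 0.35). Every knockout library lay below all wild-type libraries for Ppp1ca and above them for Ppp1cb, and the adjusted p of both was 0.9999 in edgeR. Of all tested genes, 4.62% had the first order and 1.52% the second. Ppp1cc overlapped between genotypes, at 159, 252, 221 and 0.104 CPM in knockout and 250, 134, 320 and 93.6 CPM in wild type (−0.34, SE 1.21). Eif2s1, the eIF2 subunit that the kinases phosphorylate, averaged 281 ± 112 CPM in knockout and 217 ± 51.5 CPM in wild type (SD, n = 4 each).

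Downstream, 25 of 39 listed ATF4 targets of amino acid supply were tested and 0 passed in edgeR. Estimates were higher for 15 and lower for 10, where 45.0% of all tested genes had higher and 55.0% lower ones, with a median of 0.16 on the log2 scale. The listed targets summed to 3486, 4434, 3074 and 3570 CPM in knockout replicates 1 to 4 and to 2417, 2968, 2464 and 2784 CPM in wild-type replicates 1 to 4, without overlap. This sum, in which abundant genes count most, is given with no test. It averaged 3641 CPM in knockout and 2658 CPM in wild type, of which Eprs alone held 742 and 385 CPM. How often the sums of other gene sets lack overlap was not examined. At an unadjusted p under 0.05 there were 2 higher and 0 lower targets, against 1.87% and 1.97% of all tested genes, both of them tRNA synthetases. One was Nars, the asparaginyl-tRNA synthetase, at 434, 381, 577 and 895 CPM in knockout replicates 1 to 4 and 305, 426, 296 and 368 CPM in wild-type replicates 1 to 4 (log2 fold change 0.71, SE 0.30, adjusted p = 0.9999 in edgeR). Knockout replicates 1, 3 and 4 lay above all wild-type libraries. The other was Eprs (0.95, SE 0.27, adjusted p = 0.460 in edgeR). Among the other tRNA synthetases of the list, estimates were higher for Tars, Gars, Aars and Lars. They were lower for Sars, Wars, Mars, Iars, Yars and Cars. Slc3a2, also listed, was at 406, 471, 378 and 407 CPM in knockout and at 235 to 350 CPM in wild type (0.49, SE 0.25, adjusted p = 0.9999 in edgeR). For both Slc3a2 and Eprs every knockout library lay above all wild-type libraries, as for 1.52% of tested genes. As with Chac1 and Trib3, 6 targets had 0 counts in all 8 libraries: Gdf15 and Fgf21, which encode secreted stress hormones, Vldlr, Slc6a9, Cbs and Gpt2. Slc1a5, a neutral amino acid transporter, was at 326, 242, 120 and 0.261 CPM in knockout, against 204, 169, 216 and 178 CPM in wild type, and knockout replicate 4 was again the low one.

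Of 21 tested bZIP factors that can pair with ATF4 or CHOP, 0 passed in edgeR. Among them 0 were higher and 2 lower at an unadjusted p under 0.05, against 1.87% and 1.97% of all tested genes. Estimates were higher for 11 and lower for 10 (median log2 fold change 0.02). Junb, an AP-1 subunit, was at 1552, 307, 742 and 1158 CPM in knockout replicates 1 to 4, against 1670, 1402, 2089 and 3488 CPM in wild-type replicates 1 to 4 (−1.20, SE 0.44, adjusted p = 0.914 in edgeR). Crem, a cAMP-responsive factor, was at 323, 325, 355 and 336 CPM in knockout and at 168, 295, 213 and 275 CPM in wild type (0.49, SE 0.28). Its groups did not overlap, and 1.52% of tested genes had every knockout library above every wild-type library. Batf, an AP-1 factor of T cells, was at 412 CPM in knockout replicate 4, against 71.9 to 187 CPM in the other knockout libraries and 104 to 175 CPM in wild type.

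Of 13 tested CHOP targets and relatives of the members, 0 passed in edgeR. There was 1 higher and 0 lower gene at an unadjusted p under 0.05, against 1.87% and 1.97% of all tested genes. Estimates were higher for 8 and lower for 5 (median 0.47). The list summed to 2437, 1947, 1886 and 1885 CPM in knockout and to 1818, 1505, 1409 and 1614 CPM in wild type, without overlap and likewise with no test. Its mean was 2039 CPM in knockout and 1586 CPM in wild type, of which Herpud1 alone held 903 and 599 CPM. Here too, the share of other gene sets without overlap was not examined. Herpud1, which serves endoplasmic reticulum degradation, was at 988, 1117, 801 and 704 CPM in knockout replicates 1 to 4 and at 828, 523, 523 and 524 CPM in wild-type replicates 1 to 4. Knockout replicates 1 and 2 lay above all wild-type libraries and the others below wild-type replicate 1 alone (0.59, SE 0.24). Trib2, a relative of Trib3, was at 66.3, 253, 289 and 240 CPM in knockout and at 95.3, 92.4, 178 and 183 CPM in wild type. Gadd45b, a growth arrest gene, averaged 81.2 ± 39.9 CPM in knockout and 177 ± 70.6 CPM in wild type (SD, n = 4 each), with overlap in 2 knockout libraries.

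The other arms of the unfolded protein response had 15 tested genes, of which 0 passed in edgeR (median 0.06). Of these genes 1 was higher and 0 lower at an unadjusted p under 0.05, against 1.87% and 1.97% of all tested genes. Hsp90b1, an endoplasmic reticulum chaperone, was at 832, 992, 646 and 1030 CPM in knockout replicates 1 to 4 and at 584, 633, 637 and 531 CPM in wild-type replicates 1 to 4 (0.55, SE 0.21, adjusted p = 0.934 in edgeR). Every knockout library lay above all wild-type libraries, as for 1.52% of tested genes. Xbp1, the factor spliced by IRE1, was at 222, 402, 406 and 0.157 CPM in knockout, against 235 to 381 CPM in wild type. A list of mTORC1 regulators read beside Ddit4 had 7 tested genes (Tsc1, Sesn1, Sesn3, Rheb, Akt1s1, Nprl2 and Depdc5), of which 0 passed in edgeR and none was at an unadjusted p under 0.05 (median −0.09). Rheb, the activator of mTORC1, averaged 440 ± 164 CPM in knockout and 355 ± 118 CPM in wild type (SD, n = 4 each).

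Ddit4 is also induced by glucocorticoids and hypoxia, and both lists were read beside it. Of 7 tested glucocorticoid targets 5 had lower and 2 higher estimates (median −0.24), and of 8 tested hypoxia targets 7 had lower and 1 a higher one (median −0.79). None of either list passed in edgeR, and none was at an unadjusted p under 0.05. Per1, a clock gene that glucocorticoids induce, was at 3.24, 8.84, 15.3 and 0.104 CPM in knockout replicates 1 to 4 and at 83.1, 26.8, 23.7 and 45.0 CPM in wild-type replicates 1 to 4 (−2.70, SE 1.70). Every knockout library lay below all wild-type libraries, as for 4.62% of tested genes. Tsc22d3, another glucocorticoid target, averaged 191 ± 86.5 CPM in knockout and 195 ± 55.4 CPM in wild type (SD, n = 4 each). The hypoxia list summed to 453, 446, 393 and 1.41 CPM in knockout and to 404 to 546 CPM in wild type. Knockout replicates 1 and 2 lay within the wild-type range and replicate 3 just below it. Knockout replicate 4, where P4ha1 alone of the tested hypoxia targets had counts, was also the library with the least Ddit4. In that library 43.7% of all tested genes were at 0. The part of either stimulus in the Ddit4 values was not tested.

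Of the 9 lists beside the members, DESeq2 called 4 genes at an adjusted p under 0.05 that edgeR did not call, of 143 with such a p, a share of 2.80% beside 3.63% of all 10659 genes it tested. They are named here after their values were seen. Of these lists limma voom called 0 genes with or without quality weights. Cars, the cysteinyl-tRNA synthetase, was at 2.19, 0.0556, 4.22 and 0 CPM in knockout replicates 1 to 4 and at 29.3, 50.5, 31.4 and 39.7 CPM in wild-type replicates 1 to 4 (log2 fold change −4.54, SE 2.17, adjusted p = 0.9999 in edgeR). Its groups did not overlap, and 4.62% of tested genes had every knockout library below every wild-type library. The direction of Cars was thus opposite to that of the synthetases Eprs and Nars. Mafk, a small bZIP protein, had 4 counts over the knockout libraries together, at up to 0.157 CPM, against 26.5, 13.2, 16.5 and 7.99 CPM in wild type (adjusted p = 0.651 in edgeR). Tsc2, a subunit of the complex through which REDD1 acts, was at 0 in all knockout libraries, against 0, 19.1, 12 and 18.7 CPM in wild type. Vegfa, a hypoxia target, was at 0, 26.4, 4.02 and 0 CPM in knockout and at 0 in all wild-type libraries. The last 2 genes were removed by the filter and overlapped between genotypes at 0.

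**Figure D4:**
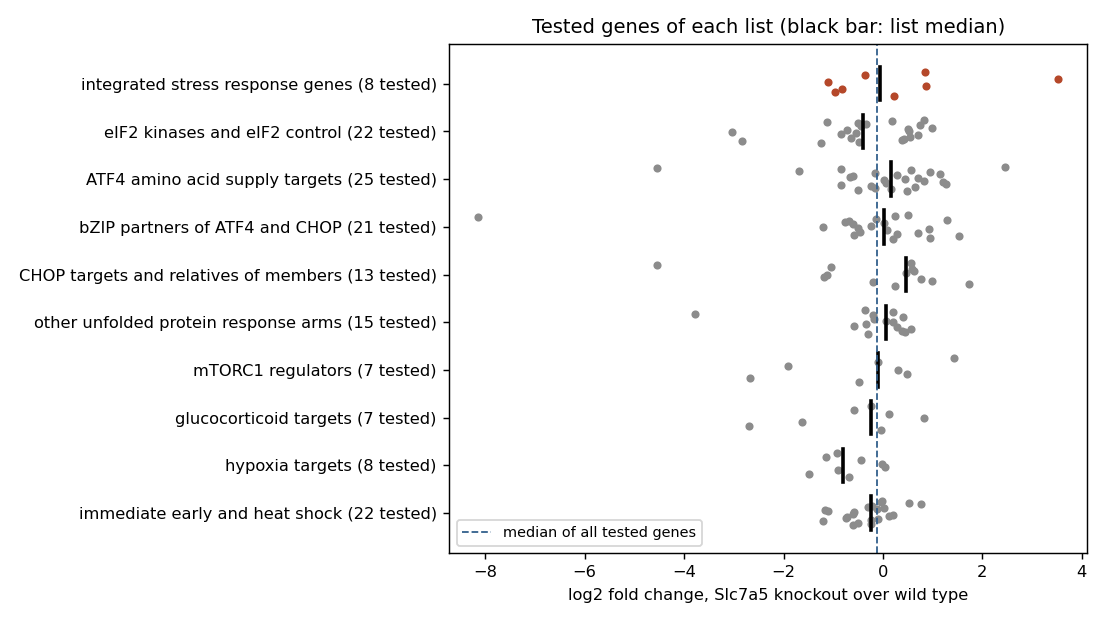
Log2 fold change, Slc7a5 knockout over wild type (horizontal axis), of every tested gene of the integrated stress response set (red) and of the other lists (grey), each point a gene, with the list median as a black bar and the median of all tested genes, −0.12, as a dashed line. The medians run from −0.79 for hypoxia targets to 0.47 for CHOP targets and relatives, and the points of each list spread to both sides of 0.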

How the data were processed

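Sorted CD4+ T cells were lysed, and their RNA was purified on micro columns, turned into libraries with a kit for single cells or low input, and read on a NovaSeq instrument, per the labels' protocols. The authors deposited raw counts per gene symbol, unnormalized whole numbers. The submitters' processing notes name HISAT2 2.1.0, featureCounts, edgeR 3.28.1 and mm10, and the sources used here do not give the annotation, the strand setting or how duplicates were handled. Amplification from few cells can lose scarce messages at random.

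In R 4.3.3, edgeR 4.0.16 kept 8489 genes (filterByExpr, with 10 as minimum count and 15 as minimum total) and applied TMM scaling. Its robust quasi-likelihood test was fitted on all 8 libraries with a term for genotype alone, and p-values were adjusted by Benjamini-Hochberg over all tested genes (threshold 0.05). Each SE was obtained by dividing the log2 fold change by the root of F. A gene removed by the filter was read from the fit without a filter. The limit for a count of 0 is 3 counts. The scripts were tested on simulated data.

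The members and lists were chosen with earlier results of these data known. Besides the 10 members and Slc7a5, genes to be named were up to 6 per list seen in all 8 libraries, by mean CPM, of which the text gives a part, and the 3 genes most like Atf4; other genes, among them the cell markers (such as Cd4, Cd8b1, Cd74, H2-Ab1 and Lyz2) and the overlapping genes Mars and Nup62, fall outside this rule and were named after their values were seen. Alternatives were other filters and scalings, no robust dispersion, DESeq2 1.42.0, voom in limma 3.58.1, the replicate number as a block, a GC offset (loess, span 0.75; GC known for 96.6% of tested genes), a threshold of 0.1 and each library left out. Leaving out both replicates numbered 4 was added after seeing the data. Positions, exon lengths and GC content came from GENCODE M21 on GRCm38, whose coordinates mm10 shares.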

Additional observations from a re-analysis of the deposited data

Results flagged for a closer look

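Of 101 groups of 4 libraries checked for a library far from the others, 4 were picked out, where chance picks about 1 in 20. Atf4 in knockout stood at 344 CPM in replicate 4, against 22.3 to 75.4 CPM in the other 3 libraries. Atf5 in knockout stood at 12.3 CPM in replicate 1, against 0 to 0.556 CPM in the others. Herpud1 in wild type stood at 828 CPM in replicate 1, against 523 to 524 CPM in the others. Sesn3, a sestrin that restrains mTORC1, stood at 224 CPM in knockout replicate 2, against 0.0522 to 27.1 CPM in the others.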

How the results depend on the processing

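No member of the integrated stress response set passed under any of the alternatives, whatever the filter, scaling, tool, block, GC offset, threshold of 0.1 or library left out. Over all genes, the count was likewise 0 in the edgeR fits (326 at an unadjusted p under 0.05 in the fit reported; from 251 with GC offset and block to 1288 without a filter; 729, 556, 904 and 748 without knockout replicates 1 to 4; 289, 312, 292 and 409 without wild-type replicates 1 to 4; 647 without both replicates numbered 4), including a range of 0 to 0 with 1 library left out, but 387 in DESeq2 (3.63% of 10659), 4 in limma voom and 4 in limma voom with quality weights; the cause was not tested. The log2 fold change of Atf4 changed sign to −0.67 in limma voom, −1.25 with quality weights, −0.61 with the replicate block, −0.081 with GC offset and block, −1.21 without knockout replicate 4 and −1.10 without both replicates numbered 4; with 1 library left out it ran from −1.21 to 0.58. That of Ppp1r15a changed sign to 0.36 with the GC offset and 0.30 with GC offset and block. The median of all tested genes moved from −0.12 to −1.27 in limma voom, −0.36 with quality weights, −0.68 with the block, 0.13 with the GC offset and −0.49 with offset and block. Less that median, Atf4 was at 0.35 in the fit reported, 0.60 in limma voom, 0.073 with the block and 0.41 with offset and block, so above the median in these, and at −0.89 with quality weights, −1.13 without knockout replicate 4 and −1.02 without both replicates numbered 4. Ppp1r15a, less the median, was at −0.24 in the fit reported, 0.23 with the GC offset and 0.79 with offset and block. Ddit3 was at −2.997 in limma voom and −1.57 with the block, and Atf5 at −3.21 with quality weights and −3.15 with the block, both without passing. The other 6 tested members kept their sign in all 21 alternatives. Correlations of same-numbered deviations were −0.0218, 0.018, 0.0208 and 0.053, and not every library matched its own number best. Such values cannot tell whether the replicate numbers pair the samples, which the labels do not say. Libraries in which 43.7% of tested genes are at 0 limit what a single 0 says about a scarce message.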
